A study of Homo sapiens with 48 samples.

Results

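The genes described here are 9 members of the intermediate filament family, chosen by symbol from a matrix of raw gene counts: the type II keratins KRT8, KRT7, KRT80 and KRT81, the type I keratins KRT18, KRT19, KRT17 and KRT15, and vimentin (VIM). They are 9 of 33892 rows, and each symbol had a single row. The study measured total RNA in 8 established human cancer cell lines: RKO and DLD-1 from colon, H-23 and H-1299 from lung, PANC-1 and CAPAN-2 from pancreas, and the multiple myeloma lines H-929 and RPMI. Each line was grown for 24 h with carfilzomib, a drug used in myeloma that blocks the proteasome irreversibly, or with DMSO, its solvent, in 3 biological replicates per group, which gave 48 libraries in 16 groups. The drug was given at the IC50 for proteasome activity, set line by line, and the concentrations were not used here. The labels name no further agent or allele. Each tumour type was represented by a pair of single lines, so a difference between lines is one between those lines.

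Keratins form filaments only as pairs of a type I and a type II chain. KRT8 with KRT18 is the first pair of simple epithelia such as gut, lung and pancreatic duct, KRT19 is a further type I partner there, and KRT7 is a type II chain of ductal and glandular epithelium. KRT15 and KRT17 belong to stratified epithelium and its appendages, KRT81 is a hair keratin, and KRT80 is a type II keratin of many epithelia. Vimentin, a type III protein that assembles with itself, is the filament protein of mesenchymal cells and leukocytes and is also made by carcinoma cells with mesenchymal features. Surplus keratin chains are removed by the ubiquitin-proteasome system, and inhibited proteasomes are known to favour keratin-containing aggregates.

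In the coordinates of GENCODE v29 (GRCh38, the hg38 build that the submitters' processing notes name), the 5 genes on chromosome 12 lie together in the type II keratin cluster. They are KRT80 (52168996 to 52192000, minus strand), KRT7 (52232520 to 52252186, plus strand), KRT81 (52285913 to 52291534, minus strand), KRT8 (52897187 to 52949954, minus strand) and KRT18 (52948871 to 52952901, plus strand), the one type I gene there. On chromosome 17, in the type I cluster, are KRT15 (41513743 to 41522529), KRT19 (41523617 to 41528308) and KRT17 (41619441 to 41624842), all on the minus strand. VIM lies on the plus strand of chromosome 10 (17228259 to 17237593). KRT8 and KRT18 overlap each other on opposite strands, as do KRT81 and KRT86, and antisense genes overlap KRT7 (KRT7-AS) and VIM (VIM-AS1). KRT7 also overlaps KRT86 on the same plus strand, where strand cannot separate them, and the pseudogene KRT87P on the minus strand. The libraries keep strand, per the labels' protocols, but whether the counting used it is not given in the sources used here, so reads in these overlaps cannot be assigned with certainty.

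Near-identical copies matter more for some of these genes than for others, because reads of a gene can be assigned to its copies. Of all 50-base windows of the KRT8 coding sequence in GENCODE v29, 48.3% occurred unchanged in a transcript of another annotated gene, against 38.7% for KRT18 and 57% for KRT81. For KRT81, a hair keratin, 49.1% of windows were shared with its relative KRT86. KRT17 shared 17.1% of its windows with other genes, most of all with its pseudogene KRT17P3 (10.2%), and 1.28% with KRT16, a type I keratin close to it on chromosome 17 (41609778 to 41615899). The other members were nearly free of such copies, at 2.08% for KRT19, 1.29% for KRT15, 1.25% for KRT7, 1.22% for KRT80 and 0 for VIM. Values of KRT8 and KRT18 where they are low, and of KRT81, are therefore uncertain.

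Total counts ran from 9116329 to 64369098 per library and were lowest in H-929 (9116329 to 18857059) and RKO (12649819 to 22555980), so low genes are measured with less precision there. Levels are given as CPM, counts scaled to the library total after TMM normalization. The plasma cell markers fixed for the label check (SDC1, TNFRSF17, IRF4, XBP1 and PRDM1) summed to 6336 to 6861 CPM in H-929 with DMSO and 1795 to 2023 in RPMI, above every carcinoma library (82.4 to 579.9 with DMSO). With carfilzomib their sums were 3571 to 3658 CPM in H-929 and 992.01 to 1130 in RPMI. Colon markers were low in RKO (sum 21.1 to 22.7 CPM with DMSO, CDX1 and LGALS4 at 0) against DLD-1 (249 to 268 CPM, LGALS4 at 0) and below CAPAN-2 (35.02 to 43.004 CPM). Lung markers summed to at most 4.46 CPM in H-23 and 1.83 in H-1299 over SFTPB, SFTPC and NAPSA, below H-929 (40.4 to 44.02 with DMSO and 17.8 to 20.2 with carfilzomib). The colon list does not set RKO apart, nor the lung list H-23 and H-1299. Fibroblast markers in PANC-1 summed to 162 to 172 CPM with DMSO and 90.04 to 105 CPM with the drug. The part of these shifts in the values below was not tested.

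With DMSO, KRT8 and KRT18 ranked the lines in nearly the same order. KRT8, the type II chain of simple epithelium, stood at 5448 ± 312 CPM (SD, n = 3) in CAPAN-2, 3315 ± 249.9 in DLD-1, 2757 ± 25.1 in PANC-1 and 1681 ± 55.5 in H-23. It was lower in H-1299 (287 ± 9.03 CPM) and RKO (54.4 ± 3.19 CPM) and close to absent in the myeloma lines, where the single libraries held 1.93, 1.71 and 1.87 CPM in RPMI and 0.739, 1.17 and 0.581 CPM in H-929. Between lines next to each other in this order no libraries overlapped. A level in CPM can be compared across lines but not between genes, since it is not scaled to length, and in RNA from whole cultures fewer cells with a transcript and less of it per cell cannot be told apart.

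KRT18, the type I partner, stood at 4199.7 ± 217 CPM in CAPAN-2, 3038 ± 273 in DLD-1, 2159.8 ± 110.1 in H-23, 1825 ± 18.3 in PANC-1 and 727 ± 39.02 in H-1299. Unlike KRT8, it did not drop to near 0 in the myeloma lines: RPMI held 106.6, 98.8 and 103 CPM and H-929 45.9, 56.99 and 44.05 CPM, with RKO between them at 69.8, 66.7 and 85.3 CPM. No libraries of neighbouring lines overlapped for KRT18 either. Per length of the principal transcript (RPKM, which scales reads to transcript length and library size), the log2 ratio of KRT8 to KRT18 with DMSO was 0.29 ± 0.028 (SD, n = 3) in PANC-1, 0.070 ± 0.049 in CAPAN-2, -0.18 ± 0.061 in DLD-1, -0.67 ± 0.035 in H-23, -0.74 ± 0.11 in RKO and -1.64 ± 0.033 in H-1299. In the myeloma lines it was -6.11 ± 0.043 (RPMI) and -6.24 ± 0.32 (H-929), by the gene rows alone a level of KRT18 with almost no KRT8. Reads in the KRT8 pseudogene rows, at 20.3 CPM in RPMI and 40.8 CPM in H-929, are not part of this ratio. Which of the pair is the higher in PANC-1 and CAPAN-2 depends on the length used: by the summed length of all annotated exons the ratio was -0.50 and -0.72.

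Rows of processed pseudogenes held reads in every line. The 49 pseudogene rows of KRT8 summed to between 20.3 ± 1.62 CPM (RPMI) and 41.7 ± 1.52 CPM (H-23) with DMSO. With DMSO they held 0.781% of the CPM of gene and pseudogenes together in DLD-1, but 11.7% in H-1299, 42.7% in RKO, 91.7% in RPMI and 98.005% in H-929. With carfilzomib the share was 26.6% in H-1299, where the gene fell, and 93.7% in H-929. The 70 pseudogene rows of KRT18 held, with DMSO, 33.004% in H-929, 27.6% in RKO, 8.35% in RPMI and at most 1.9956% in the other 5 lines; with carfilzomib they held 35.2% in H-929 and 5.94% in H-1299. Reads of the gene and of its copies cannot be told apart in these sums.

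**Figure D1:**
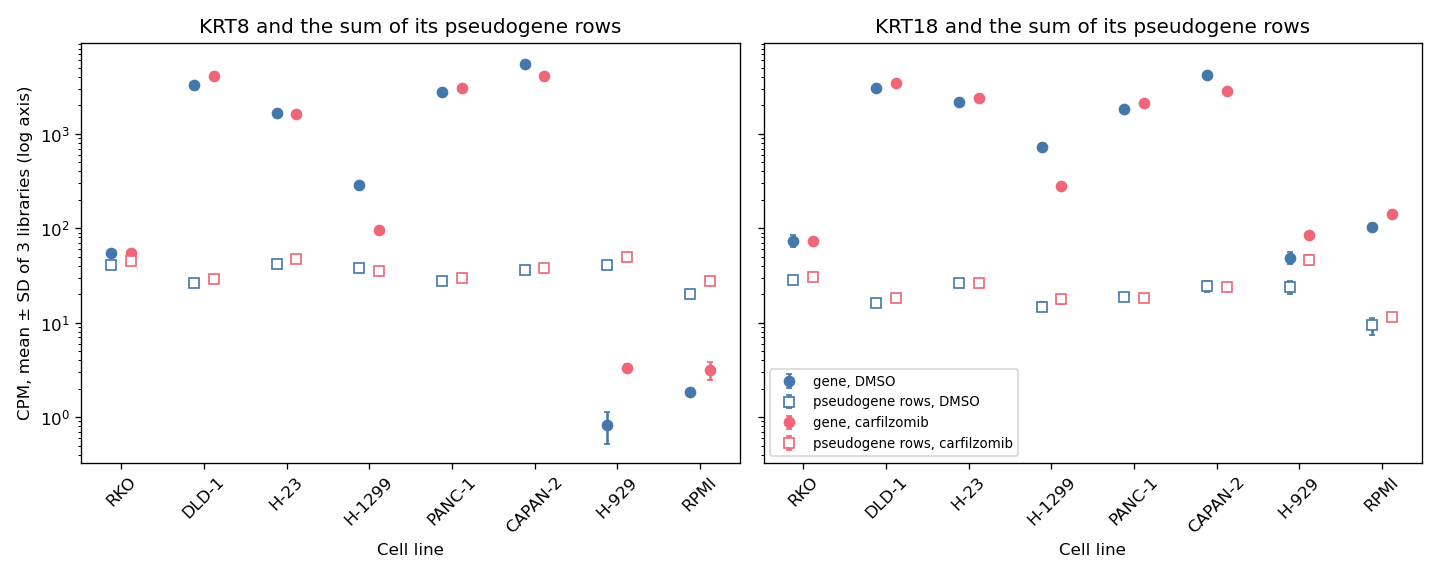
Level of KRT8 (left) and KRT18 (right) and of the sum of their pseudogene rows in each cell line, in CPM on a log axis, as mean ± SD of 3 libraries with DMSO (blue) or carfilzomib (red). The open squares lie between 9.35 and 49.7 CPM in all lines, while the filled circles of KRT8 run from 0.831 CPM in H-929 to 5448 CPM in CAPAN-2.

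KRT19 split the lines into those with and without it. It stood at 2422 ± 46.8 CPM in CAPAN-2, 912 ± 18.3 in PANC-1 and 770.4 ± 100.7 in DLD-1, at 3.91 ± 0.0350 in H-23, and at no more than 8 counts in any DMSO library of the other 4 lines, with 0 counts in all 3 of RKO and of H-929. KRT7, the ductal type II keratin, was high in 1 line only: CAPAN-2 held 1305, 1404 and 1286 CPM. The next line was RPMI, a myeloma line, at 13.4, 14.1 and 13.6 CPM, followed by DLD-1 at 9.46 ± 0.195 CPM. PANC-1, H-23 and H-1299 (means of 1.75, 1.32 and 1.31 CPM) overlapped as neighbours in the order, H-929 was at 0.487 ± 0.442 CPM, and RKO had 0 counts.

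KRT15, a type I keratin of basal cells of stratified epithelium, was highest in RPMI at 92.9, 109 and 113 CPM, above CAPAN-2 (44.4 ± 0.908 CPM), PANC-1 (23.4 ± 0.649 CPM) and H-1299 (9.89 ± 0.283 CPM). It was at 3.73 ± 0.793 CPM in DLD-1, at 1.16 ± 0.487 in H-23 and 0.488 ± 0.365 in RKO, which overlapped, and at 0 counts in H-929. KRT80 stood at 125 ± 8.41 CPM in CAPAN-2 and 121 ± 4.49 in DLD-1, whose libraries overlapped, then at 28.01 ± 2.86 in H-1299 and, again overlapping, 12.6 ± 2.23 in RPMI and 11.4 ± 1.93 in PANC-1. It was at 8.38 ± 0.288 CPM in H-23, 2.35 ± 0.687 in H-929 and 0, 0 and 2 counts in RKO. KRT17 was low everywhere, at 3.55 ± 0.207 CPM in CAPAN-2 and at or below 0.246 CPM on average elsewhere, where neighbouring lines overlapped. KRT81 was at 1.52 ± 0.572 CPM in RPMI and 1.17 ± 0.262 in DLD-1, which overlapped, and at or below 0.209 CPM on average in the others.

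Vimentin differed widely between lines of one tumour type. It stood at 3622 ± 204 CPM in H-1299, 2470.3 ± 106 in PANC-1, 1559 ± 60.5 in H-23 and 1177 ± 60.3 in H-929, then at 244 ± 21.8 in RPMI, 20.2 ± 0.0809 in RKO, 12.97 ± 1.38 in CAPAN-2 and 0.675 ± 0.153 in DLD-1. No neighbours in this order overlapped. H-23 and PANC-1 carried high VIM together with high KRT8 and KRT18, while CAPAN-2 and DLD-1 carried the keratins nearly alone, and RKO was low in both.

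**Figure D2:**
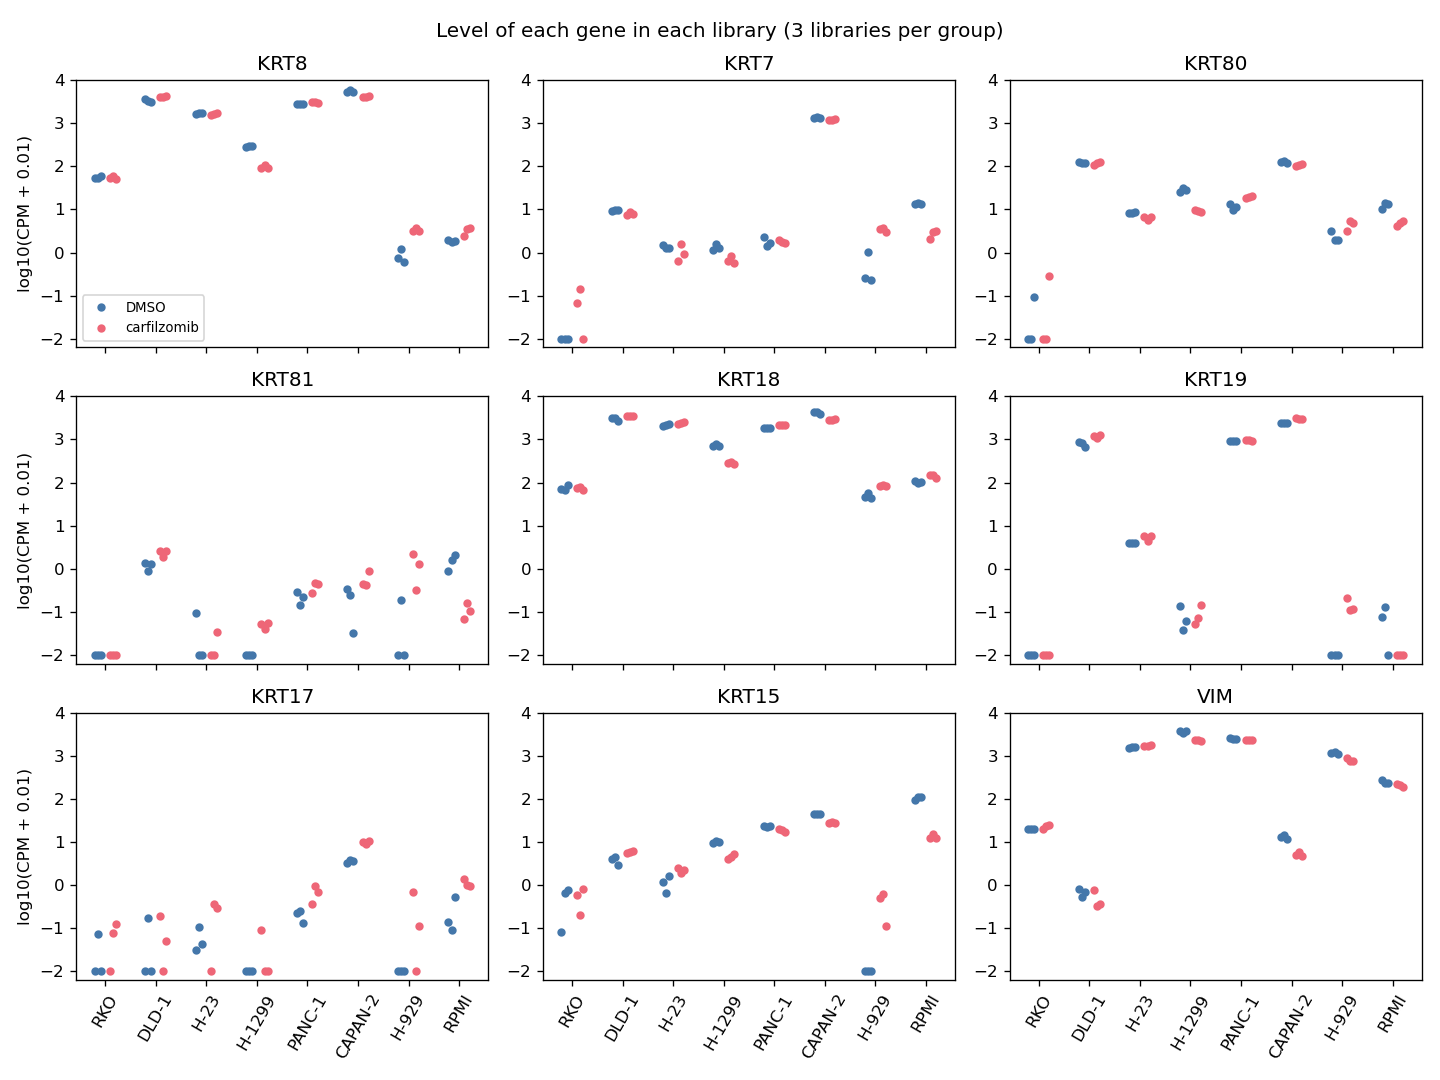
Level of each of the 9 genes in each library, as log10 of CPM + 0.01, for 8 cell lines with DMSO (blue) or carfilzomib (red); each point is 1 of 3 libraries per group, and points at -2 are libraries with 0 counts. KRT8 and KRT18 with DMSO are highest in CAPAN-2 (5448 and 4199.7 CPM), VIM in H-1299 (3622 CPM) and KRT15 in RPMI (105 CPM).

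The 2 lines of each tumour type were compared at baseline in edgeR's quasi-likelihood test on their DMSO libraries; here and below, ± on a log2 difference or change is its standard error (SE). DLD-1 was higher than RKO for 7 of 8 members tested and lower for VIM; of all genes tested, 41.8% were higher and 36.7% lower, 78.6% in all. Of the 7, KRT7, KRT19, KRT81 and KRT80 had 0 to 2 counts in the RKO libraries together and passed the filter through DLD-1, so they had to come out higher. KRT15 had 1, 10 and 18 counts in the RKO libraries, so it too passed the filter with all 3 libraries only in DLD-1. Log2 differences (DLD-1 minus RKO) were 5.85 ± 0.071 (adjusted p = 4.68e-13) for KRT8, 5.28 ± 0.098 (adjusted p = 5.61e-12) for KRT18, 2.77 ± 0.45 (adjusted p = 0.000204) for KRT15 and -4.94 ± 0.18 (adjusted p = 1.07e-09) for VIM. Genes at 0 counts in RKO give bounds against a floor of 3 counts over its 3 libraries: KRT19 was at least 13771-fold higher in DLD-1, KRT7 at least 169-fold and KRT81 at least 20.9-fold. KRT80 was also called higher, from 2 counts in all RKO libraries together. CAPAN-2 was higher than PANC-1 for 7 of 8 members and lower for VIM, against 39.9% and 40.2% of all genes, 80.1% in all. The largest of these were KRT7, at 9.57 ± 0.11 (adjusted p = 2.68e-15), and VIM, at -7.59 ± 0.089 (adjusted p = 2.73e-15). KRT17 (4.21 ± 0.28, adjusted p = 1.69e-08) and KRT80 (3.45 ± 0.099, adjusted p = 3.63e-12) followed, and KRT8, KRT18, KRT19 and KRT15 were higher by 0.98, 1.20, 1.40 and 0.92 on the log2 scale. KRT17 had 17 counts in the PANC-1 libraries together and passed the filter through CAPAN-2, so it had to come out higher.

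In the lung pair the keratins split. H-23 was higher than H-1299 for KRT8 (2.56 ± 0.041, adjusted p = 5.36e-13), KRT18 (1.58 ± 0.050, adjusted p = 7.21e-11) and KRT19 (5.61 ± 0.34, adjusted p = 2.01e-08). It was lower for KRT15 (-3.03 ± 0.23, adjusted p = 1.7e-07), KRT80 (-1.73 ± 0.092, adjusted p = 6.03e-09) and VIM (-1.21 ± 0.043, adjusted p = 1.74e-10), and KRT7 missed the threshold at 0.028 ± 0.23 (adjusted p = 0.917). That is 3 higher and 3 lower of 7 members tested, where 40.8% of all genes were higher and 39.3% lower, 80.2% in all. KRT19 had 11 counts in the H-1299 libraries together and passed the filter through H-23, so it had to come out higher. In the myeloma pair H-929 was higher than RPMI for VIM alone, at 2.30 ± 0.072 (adjusted p = 4.39e-11), and lower for 6 of 7 members, while 41% of all genes tested were called in each direction, 82% in all. KRT7 differed by -4.73 ± 0.37 (adjusted p = 1.53e-07), KRT80 by -2.39 ± 0.23 (adjusted p = 1.26e-06), KRT8 by -1.10 ± 0.35 (adjusted p = 0.0115) and KRT18 by -1.04 ± 0.085 (adjusted p = 2.29e-07). KRT15 had 0 counts in H-929 and was at least 1647-fold higher in RPMI. KRT81 was called lower in H-929 from 3 counts in all, each in DMSO replicate 2. Of the 6 lower members, KRT7, KRT15 and KRT81 passed the filter on low counts through RPMI, so they had to come out lower. KRT8 had 12, 20 and 8 counts in the H-929 libraries, the last just below the filter. It too passed with all 3 libraries only in RPMI.

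Carfilzomib changed these genes in opposite directions in different lines. In RKO edgeR called 0 of 4 members tested in either direction, where it called 8.9% of all genes (3.62% higher, 5.28% lower); 0 members had an unadjusted p under 0.05, and DESeq2 also called 0. In DLD-1 5 of 8 rose and 0 fell (10.9% of all genes rose and 12.1% fell, 23% in all; 1 member fell at an unadjusted p under 0.05, and DESeq2 called 0 lower). In H-23 4 of 7 rose and 1 fell (17.7% and 16.2% of all genes, 33.9% in all). In H-1299 all 6 members tested fell and 0 rose (31.3% of all genes fell and 29.8% rose, 61.2% in all; 0 members rose at an unadjusted p under 0.05 or in DESeq2). In PANC-1 5 of 8 rose and 1 fell (20.5% and 18.2% of all genes, 38.7% in all), and in CAPAN-2 2 of 9 rose and 6 fell (25.7% and 26.7%, 52.5% in all). In H-929 4 of 5 rose and 1 fell (26.4% and 26.2%, 52.6% in all), and in RPMI 3 of 8 rose and 5 fell (31.3% and 32.2%, 63.4% in all). The median log2 change of the members tested was -1.18 in H-1299 and 1.10 in H-929, where the medians of all genes tested were -0.015 and 0.029. Members that passed the filter on low counts only through the group in which they were high had to differ, so these counts describe the members tested and not all 9. They included KRT7 and KRT8 in H-929 and KRT17 in PANC-1 and RPMI, which could only rise. KRT81 in RPMI could only fall, and in CAPAN-2, where it was not called, it could only be called higher. The count and the median of H-929 include KRT7 and KRT8.

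**Figure D3:**
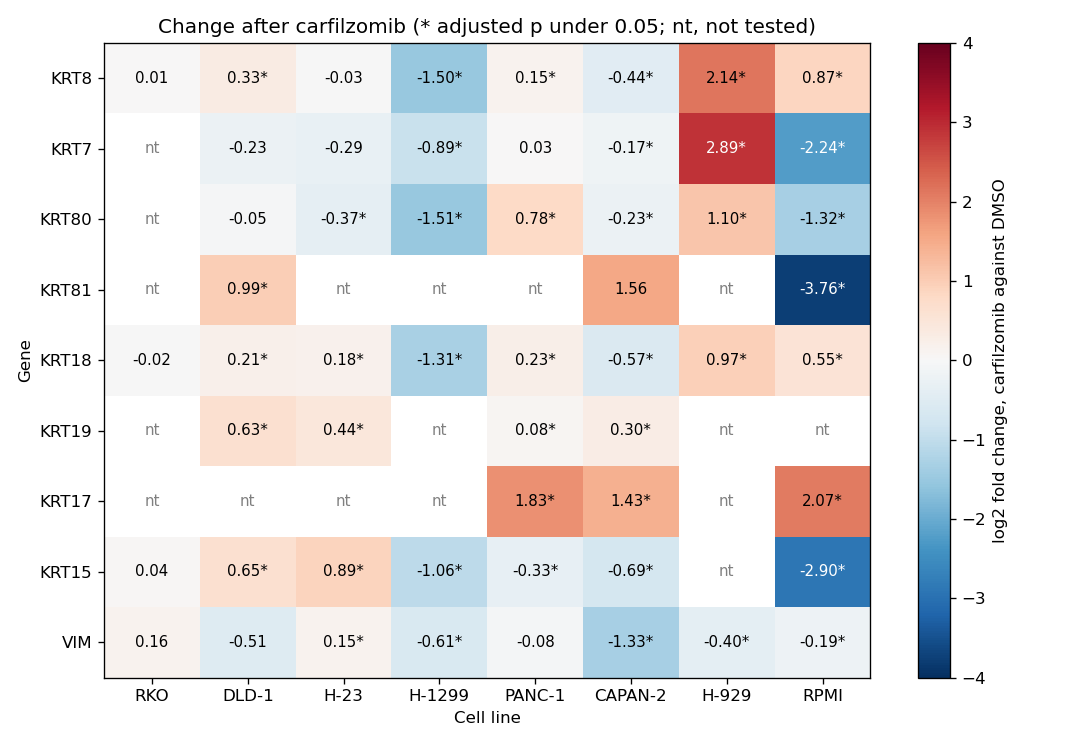
Log2 fold change of each gene (rows) in each cell line (columns), carfilzomib against DMSO, with red for higher and blue for lower; asterisks mark an edgeR adjusted p under 0.05 and nt marks genes not tested because of low counts. H-1299 is blue in all 6 members tested, and H-929 and RPMI show opposite colours for KRT7 (2.89 and -2.24) and KRT80 (1.10 and -1.32).

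KRT8 rose in 4 of 8 lines and fell in 2. The largest fall was in H-1299, where the DMSO libraries held 278, 296 and 287 CPM and the carfilzomib libraries 91.5, 105 and 93.1 CPM. All treated libraries were below all controls, 2.83-fold on average (log2 change -1.50 ± 0.053, adjusted p = 2.6e-10). In CAPAN-2 the level went from 5378, 5788 and 5177 to 3995, 3993 and 4172 CPM (-0.44 ± 0.053, adjusted p = 6.6e-06). It rose in DLD-1 from 3557, 3332 and 3058 to 4099.8, 4103 and 4248 CPM (0.33 ± 0.045, adjusted p = 0.00052) and in PANC-1 from 2749, 2738 and 2786 to 3111, 3018 and 2979.5 CPM (0.15 ± 0.021, adjusted p = 0.000133). In none of these 4 lines did the groups overlap. RKO (0.0079 ± 0.064, adjusted p = 0.96) and H-23 (-0.025 ± 0.028, adjusted p = 0.542) overlapped and were not called.

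In the myeloma lines KRT8 rose from very few reads, from 12, 20 and 8 counts to 32, 36 and 30 counts in H-929 (2.14 ± 0.43, adjusted p = 0.000819) and from 30, 43 and 60 to 41, 68 and 77 counts in RPMI (0.87 ± 0.25, adjusted p = 0.00742). In H-929 KRT8 passed the filter on low counts through the carfilzomib libraries, so there it could only be called higher. Its pseudogene rows summed to 40.8 ± 3.08 CPM with DMSO and 49.7 ± 2.62 with carfilzomib in H-929, and to 20.3 ± 1.62 and 27.9 ± 1.96 CPM in RPMI. With these rows added to the gene, an alternative chosen after seeing the data, the rise was 0.50 in H-929 (adjusted p = 0.00107) and 0.57 in RPMI (adjusted p = 7.36e-05).

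KRT18 rose in 5 lines and fell in 2. It fell in H-1299, from 691, 768 and 720.5 to 278, 294 and 267 CPM (-1.31 ± 0.050, adjusted p = 4.87e-10), and in CAPAN-2, from 4308, 4341 and 3949.8 to 2784, 2838 and 2975 CPM (-0.57 ± 0.055, adjusted p = 6.98e-07). In both myeloma lines it rose: H-929 went from 45.9, 56.99 and 44.05 to 82.7, 89.7 and 84.3 CPM (0.97 ± 0.11, adjusted p = 4.2e-06) and RPMI from 106.6, 98.8 and 103 to 146, 151 and 131 CPM (0.55 ± 0.063, adjusted p = 4.01e-06). None of these groups overlapped. The KRT18 pseudogene rows of H-929 summed to 24.1 ± 3.78 CPM with DMSO and 46.5 ± 5.71 with carfilzomib. Rises were also called in PANC-1 (0.23 ± 0.022, adjusted p = 5e-06), DLD-1 (0.21 ± 0.053, adjusted p = 0.0173) and H-23 (0.18 ± 0.034, adjusted p = 0.00109), where KRT8 was not called. The DLD-1 call was lost without any 1 of its 3 carfilzomib libraries (adjusted p = 0.0586, 0.0611 and 0.084 without replicate 1, 2 and 3). RKO was not called (-0.022 ± 0.085, adjusted p = 0.912; 0.021 with library totals in place of TMM).

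KRT19 rose in each of the 4 lines in which it could be tested. In DLD-1 it went from 848, 806 and 657 to 1214, 1105 and 1240.4 CPM (0.63 ± 0.079, adjusted p = 0.000328) and in CAPAN-2 from 2460.0, 2437 and 2369.9 to 3117, 2968 and 2994 CPM (0.30 ± 0.049, adjusted p = 0.000115). CAPAN-2 had KRT19 higher and KRT8 and KRT18 lower with the drug. In H-23 the rise was from 3.93, 3.93 and 3.87 to 5.60, 4.38 and 5.70 CPM (0.44 ± 0.14, adjusted p = 0.027) and in PANC-1 from 913, 930.0 and 893 to 975, 970.4 and 942 CPM (0.084 ± 0.026, adjusted p = 0.0221). The H-23 call was lost without DMSO replicate 1, 2 or 3 or carfilzomib replicate 1 or 3 (adjusted p from 0.0642 to 0.104), and with no filter on low counts (0.0556). The PANC-1 call was lost without DMSO replicate 1 or 3 or carfilzomib replicate 1 or 2 (0.0578 to 0.126), and with no filter (0.0862). In H-929, where it was not tested, counts were 0 in every DMSO library and 2, 1 and 1 with carfilzomib.

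The largest changes of KRT7 were in the myeloma lines, in opposite directions. In H-929 it passed the filter on low counts through the carfilzomib libraries, so there it could only be called higher. H-929 had 4, 17 and 3 counts with DMSO and 36, 35 and 28 with carfilzomib (2.89 ± 0.56, adjusted p = 0.000553), while RPMI fell from 13.4, 14.1 and 13.6 to 2.05, 3.06 and 3.10 CPM (-2.24 ± 0.17, adjusted p = 7.66e-08); neither pair of groups overlapped. In CAPAN-2, the one line with much KRT7, the change was small, from 1305, 1404 and 1286 to 1171, 1188 and 1236 CPM (-0.17 ± 0.055, adjusted p = 0.0169). Its call was lost without DMSO replicate 2 (adjusted p = 0.109) and without carfilzomib replicate 1 (0.0731) or 2 (0.0913). H-1299 fell from 1.14, 1.56 and 1.24 to 0.622, 0.800 and 0.576 CPM (-0.89 ± 0.29, adjusted p = 0.0189), a call lost without DMSO replicate 2 (0.0686) or carfilzomib replicate 1 (0.0568) or 3 (0.0502). DLD-1 (-0.23 ± 0.10, adjusted p = 0.136), H-23 (-0.29 ± 0.29, adjusted p = 0.485) and PANC-1 (0.030 ± 0.21, adjusted p = 0.929) were not called. The antisense gene KRT7-AS had means of 1.60 and 0.218 CPM in RPMI with DMSO and carfilzomib, 0.0205 and 1.06 CPM in H-929, and 48.4 and 51.8 CPM in CAPAN-2. KRT86, which overlaps KRT7 on the same strand, also fell in RPMI (log2 change -3.44). Whether the KRT7 row holds reads of KRT86 was not tested.

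KRT80 too fell in one myeloma line and rose in the other. RPMI fell from 10.1, 14.3 and 13.3 to 4.03, 4.82 and 5.43 CPM (-1.32 ± 0.17, adjusted p = 1.24e-05), and H-929 rose from 3.14, 1.94 and 1.96 to 3.23, 5.50 and 4.798 CPM (1.10 ± 0.36, adjusted p = 0.019). The H-929 call was lost without DMSO replicate 2 (adjusted p = 0.0765) or 3 (0.0705) or carfilzomib replicate 2 (0.0788) or 3 (0.0511). It fell in H-1299 from 25.3, 30.97 and 27.8 to 9.91, 9.33 and 8.87 CPM (-1.51 ± 0.099, adjusted p = 4.27e-08) and rose in PANC-1 from 13.4, 9.58 and 11.3 to 18.9, 19.05 and 20.9 CPM (0.78 ± 0.10, adjusted p = 6.3e-05), with no overlap. Small falls were called in H-23 (-0.37 ± 0.11, adjusted p = 0.0184), lost without DMSO replicate 3 (0.0571) or carfilzomib replicate 2 (0.0767), and in CAPAN-2 (-0.23 ± 0.065, adjusted p = 0.0087), lost without DMSO replicate 2 (0.0584) or carfilzomib replicate 1 (0.0551). DLD-1 was not called (-0.051 ± 0.056, adjusted p = 0.569).

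KRT81 could be tested in 3 lines. The RPMI test passed the filter on low counts through the DMSO libraries, so there KRT81 could only be called lower. In RPMI it fell from 14, 41 and 65 counts to 1, 3 and 2 counts (-3.76 ± 0.53, adjusted p = 2.92e-05), and its relatives KRT83 and KRT86 fell there too: KRT83 from 3.10 ± 1.12 to 0.119 ± 0.114 CPM (-4.56 ± 0.51, adjusted p = 3.38e-06) and KRT86 from 6.77 ± 1.29 to 0.596 ± 0.229 CPM (-3.44 ± 0.29, adjusted p = 2.07e-07). KRT83, at 1 to 5 counts per carfilzomib library, likewise passed the filter through the DMSO libraries and could only be called lower. KRT86 held 7 to 15 counts per carfilzomib library. With the counts of these relatives added, an alternative chosen after seeing the data, the log2 change in RPMI was -3.73. In DLD-1 KRT81 rose from 66, 27 and 41 to 83, 59 and 65 counts (0.99 ± 0.22, adjusted p = 0.00981), but with the relatives added the change was 0.14 and not called (adjusted p = 0.479). CAPAN-2 was not called (1.56 ± 0.63, adjusted p = 0.0512) on 1 to 21 counts per library. In CAPAN-2 KRT81 passed the filter on low counts through the carfilzomib libraries, so there it could only be called higher. It was called without DMSO replicate 1 (log2 change 2.26, adjusted p = 0.0283), was at 0.97 without DMSO replicate 3, and was at -0.012 with the relatives added. In H-929, where it was not tested, it had 0, 3 and 0 counts with DMSO and 22, 3 and 12 with carfilzomib.

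KRT15, highest in RPMI at baseline, fell most there, from 92.9, 109 and 113 to 12.2, 15.6 and 12.1 CPM, a 7.48-fold decrease (-2.90 ± 0.097, adjusted p = 3.58e-11). It also fell in H-1299 from 9.68, 10.2 and 9.79 to 4.06, 4.37 and 5.14 CPM (-1.06 ± 0.13, adjusted p = 9.04e-06), in CAPAN-2 from 43.3, 44.996 and 44.8 to 27.5, 29.1 and 27.03 CPM (-0.69 ± 0.059, adjusted p = 2.28e-07) and in PANC-1 from 23.96, 22.7 and 23.4 to 19.5, 18.8 and 17.3 CPM (-0.33 ± 0.060, adjusted p = 0.000794). These were the 4 lines with the highest KRT15 at baseline, and none of the groups overlapped. At lower levels it rose in DLD-1 from 3.96, 4.38 and 2.85 to 5.66, 5.69 and 6.12 CPM (0.65 ± 0.16, adjusted p = 0.0147), a call lost without carfilzomib replicate 3 (adjusted p = 0.0616). It rose in H-23 from 1.20, 0.650 and 1.62 to 2.47, 1.87 and 2.17 CPM (0.89 ± 0.27, adjusted p = 0.0206), a call lost without DMSO replicate 1 (0.0514) or 2 (0.0627) or carfilzomib replicate 1 (0.0731). RKO was not called (0.044 ± 0.72, adjusted p = 0.98), and in H-929, where it was not tested, counts were 0 in every DMSO library and 5, 6 and 1 with carfilzomib.

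KRT17, a keratin of hair follicles and of wounded or stressed epidermis, was called higher in the 3 lines in which it was tested. In PANC-1 and RPMI it was so low with DMSO that it passed the filter on low counts through the carfilzomib libraries, so there it could only be called higher. In CAPAN-2 it went from 3.31, 3.71 and 3.61 to 9.88, 8.72 and 10.4 CPM (1.43 ± 0.14, adjusted p = 6.73e-07). The other calls rest on few reads: 6, 7 and 4 to 11, 34 and 22 counts in PANC-1 (1.83 ± 0.46, adjusted p = 0.00685), and 2, 2 and 17 to 23, 20 and 20 counts in RPMI (2.07 ± 0.56, adjusted p = 0.00537). In RPMI the third DMSO library held 17 of the 21 control counts, and without it the change was 3.43 (adjusted p = 0.00068). KRT16, its relative, rose in RPMI from 36.4 ± 6.90 to 273 ± 29.98 CPM (2.97 ± 0.11, adjusted p = 6.68e-11).

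VIM fell in 4 lines and rose in 1. In H-1299, where it was most abundant, it went from 3755, 3388 and 3725 to 2273, 2286 and 2203 CPM (-0.61 ± 0.041, adjusted p = 5.35e-08), and in H-929 from 1176, 1239 and 1118 to 876, 766 and 748 CPM (-0.40 ± 0.075, adjusted p = 0.000464). The largest fold was in CAPAN-2, where it was low, from 12.9, 14.4 and 11.6 to 5.05, 5.78 and 4.76 CPM (-1.33 ± 0.13, adjusted p = 5.99e-07). None of these groups overlapped. H-23 rose slightly, from 1505, 1546 and 1624 to 1633, 1709 and 1768 CPM (0.15 ± 0.028, adjusted p = 0.000848). RPMI fell from 269, 232 and 231 to 215, 207 and 186 CPM (-0.19 ± 0.076, adjusted p = 0.0437), a call lost without DMSO replicate 1 (log2 change -0.11, adjusted p = 0.159) or carfilzomib replicate 2 (0.0726) or 3 (0.17), with DESeq2's size factors (0.0549) and with a minimum mean of 50 counts (0.0814). PANC-1 was not called (-0.078 ± 0.031, adjusted p = 0.0611) and was at -0.044 without DMSO replicate 1 (adjusted p = 0.227); it was called without DMSO replicate 2 (0.0263) or carfilzomib replicate 3 (0.0448), with library totals in place of TMM (0.0473) and in DESeq2 (0.0452). RKO (0.16 ± 0.10, adjusted p = 0.404) and DLD-1 (-0.51 ± 0.38, adjusted p = 0.383, on 9 to 40 counts per library) were not called. The antisense gene VIM-AS1 went from 6.36 to 1.52 CPM in H-1299 and from 1.02 to 0.465 CPM in CAPAN-2.

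In one model of all 48 libraries, the F test called a difference between lines in the effect of carfilzomib for 8 of the 9 members, all but KRT17 (adjusted p = 0.639), and for 67.7% of all genes tested. Of the 8, KRT19 and KRT81 had 0 counts in all 6 RKO libraries, so they have no effect there to compare and no usable mean effect, and their tests do not cover all 8 lines. KRT19 was also at 0 with DMSO in H-929 and with carfilzomib in RPMI, KRT81 with DMSO in H-1299, KRT7 with DMSO in RKO, KRT15 with DMSO in H-929 and KRT17 with DMSO in H-1299 and H-929. The mean effect over the lines was called higher for 2 members, KRT8 and KRT17, and lower for 1, VIM, where 19.8% of all genes were higher and 23.9% lower, 43.7% in all. For KRT17 the mean includes H-1299 and H-929, where 0 counts with DMSO leave the size of the effect without a fixed value. The mean log2 change of VIM was -0.39 ± 0.046 (adjusted p = 4.26e-10) and stayed between -0.26 and -0.47 when each line was left out in turn. That of KRT8 was 0.15 ± 0.041 (adjusted p = 0.00221) and rested on H-929: without that line it was -0.11 (adjusted p = 0.0014), without RPMI 0.051 (0.381) and without H-1299 0.39. KRT18 averaged -0.013 ± 0.026 (adjusted p = 0.874; 0.0055 with DESeq2's size factors and 0.022 with library totals); it was 0.18 without H-1299 (1.18e-06), -0.13 without H-929 (1.98e-05) and -0.087 without RPMI (0.0127). The standard errors here reflect replicates only. In limma with each line as a single unit, 0 of all genes tested were called, the members among them. Of the members, 2 had an unadjusted p under 0.05 (KRT17 and VIM).

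The make-up of the 9 genes per length, as shares of their summed RPKM over the principal transcript, differed widely between the lines. With DMSO VIM held 94.6% ± 0.506 (SD, n = 3) of the sum in H-929, 73.8% ± 2.04 in H-1299, 50.2% ± 2.80 in RPMI, 27.3% ± 0.859 in PANC-1, 25.1% ± 0.348 in H-23 and 11.5% ± 1.04 in RKO, and 0.0804% ± 0.00510 in CAPAN-2 and 0.00785% ± 0.00179 in DLD-1. Carfilzomib went with a larger VIM share in H-1299 (82.5% ± 0.545), where the log2 changes of KRT8, KRT18 and VIM were -1.50, -1.31 and -0.61, and a smaller one in H-929 (86.5% ± 1.22). In RPMI the VIM share was 49.3% ± 1.15, while the share of KRT15 went from 16.9% ± 2.22 to 2.53% ± 0.298 and that of KRT18 from 27.8% ± 0.330 to 45.7% ± 0.620. In CAPAN-2 the KRT19 share went from 20.2% ± 0.614 to 30.1% ± 1.01, and the KRT18 share from 34.3% ± 0.617 to 27.9% ± 0.578. None of the shares named for H-1299, H-929 and CAPAN-2, nor those of KRT15 and KRT18 in RPMI, overlapped between treatments. The log2 ratio of KRT8 to KRT18 per length was -4.99 ± 0.088 in H-929 and -0.87 ± 0.014 in H-23 with carfilzomib. All 9 genes together took 1.27% ± 0.0439 of counts in CAPAN-2 with DMSO and 1.02% ± 0.0232 with the drug, 0.447% ± 0.0172 and 0.246% ± 0.00362 in H-1299, and 0.0163% ± 0.00102 and 0.0171% ± 0.000898 in RKO.

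**Figure D4:**
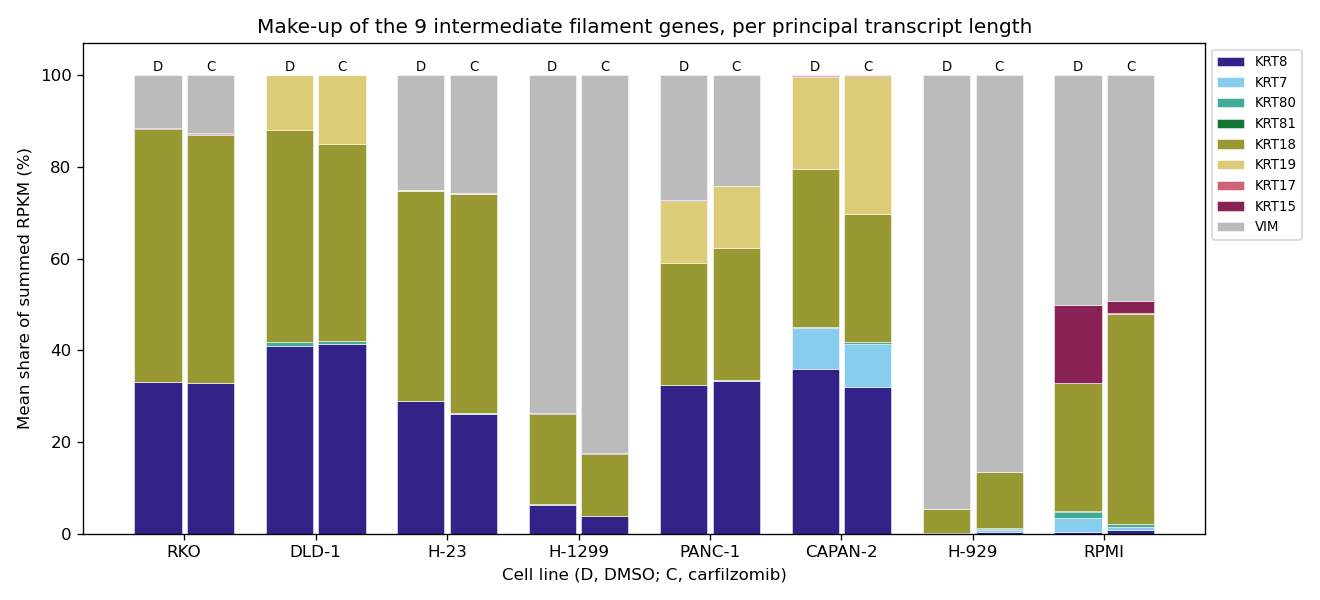
Mean share of each gene in the summed RPKM of the 9 genes (%, over the principal transcript length, 3 libraries per bar) in each cell line with DMSO (D) or carfilzomib (C). VIM makes up 94.6% of the H-929 DMSO bar, and the KRT15 part of RPMI goes from 16.9% to 2.53%.

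The other keratins that changed did so in CAPAN-2, RPMI and DLD-1. Of 9 further type I keratins, those that rose and fell numbered 3 and 0 of 3 in CAPAN-2, 2 and 0 of 2 in RPMI and 1 and 0 of 3 in DLD-1; 1 or 2 were tested in each other line and 0 were called there. By the rule for naming them, KRT16 in RPMI and KRT13 in CAPAN-2, a mucosal keratin, from 3.32 ± 0.415 to 9.64 ± 1.10 CPM (1.52 ± 0.15, adjusted p = 8.54e-07), changed most. Of 12 further type II keratins, those that rose and fell numbered 3 and 0 of 4 in CAPAN-2, 0 and 4 of 4 in RPMI, 0 and 0 of 5 in DLD-1, 0 and 0 of 1 in H-23 and 0 and 0 of 2 in PANC-1, with KRT83 and KRT86 the named ones in RPMI. Of the 3 in CAPAN-2, KRT6A and KRT6C had 0 counts in every DMSO library and so could only be called higher; a median that includes them has no fixed value and is not given. The median log2 change of those tested was 1.52 for type I in CAPAN-2, and 1.70 for type I and -2.57 for type II in RPMI. The type II count and median in RPMI include KRT83, at 1 to 5 counts per carfilzomib library, which could only be called lower. Among 12 other intermediate filament genes the risen and fallen were 0 and 2 of 5 in RKO, 1 and 2 of 4 in DLD-1, 1 and 4 of 11 in H-23, 1 and 7 of 9 in H-1299, 3 and 2 of 7 in PANC-1, 0 and 3 of 6 in CAPAN-2, 2 and 2 of 8 in H-929 and 2 and 2 of 6 in RPMI, with a median of -0.77 in H-1299. The neural filament gene NES went from 0.922 ± 0.410 to 4.58 ± 0.162 CPM in RPMI (2.32 ± 0.29, adjusted p = 1.07e-05), and GFAP, the astrocyte filament, from 2.29 ± 1.48 to 6.74 ± 0.970 CPM in H-929 (1.71 ± 0.40, adjusted p = 0.0023). With DMSO, NES stood at 4149 ± 104 CPM in H-929 and is not part of the make-up given above. Medians of all genes tested lay between -0.021 and 0.029 in the 8 lines. Of all genes tested, 8.9% were called in either direction in RKO, 23% in DLD-1, 33.9% in H-23 and 61.2% in H-1299. These shares were 38.7% in PANC-1, 52.5% in CAPAN-2, 52.6% in H-929 and 63.4% in RPMI. Whether the lists differ from them was not tested.

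Plakins and desmosomal proteins anchor these filaments. Of 13 such genes, the risen and fallen were 2 and 0 of 11 in RKO, 4 and 1 of 13 in DLD-1, 4 and 4 of 12 in H-23, 2 and 6 of 10 in H-1299, 5 and 3 of 12 in PANC-1, 3 and 2 of 13 in CAPAN-2, 4 and 3 of 9 in H-929 and 4 and 5 of 9 in RPMI, with a median of -0.53 in H-1299 and -0.79 in RPMI. The shares of all genes called in either direction were 8.9% in RKO, 23% in DLD-1, 33.9% in H-23 and 61.2% in H-1299. They were 38.7% in PANC-1, 52.5% in CAPAN-2, 52.6% in H-929 and 63.4% in RPMI. Whether the list differs from these shares was not tested. Periplakin (PPL) fell in H-1299 from 41.3 ± 8.58 to 8.90 ± 1.60 CPM (-2.14 ± 0.15, adjusted p = 6.84e-08) and plakophilin PKP2 in RPMI from 88.01 ± 3.57 to 29.05 ± 1.37 CPM (-1.52 ± 0.061, adjusted p = 1.73e-10).

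Of 10 genes of the epithelial state, such as the cadherin CDH1 and the splicing factor ESRP1, all were higher in DLD-1 than in RKO and in CAPAN-2 than in PANC-1 at baseline. Of 6 tested, 4 were higher and 0 lower in H-23 than in H-1299, and 0 higher and 6 lower in H-929 than in RPMI. Of all genes tested, 41.8% were higher and 36.7% lower in DLD-1, and 39.9% and 40.2% in CAPAN-2. The shares were 40.8% higher and 39.3% lower in H-23, and 41% in each direction in H-929. Genes near 0 in one line passed the filter through the other line and had to differ. In RKO these included CDH1, ESRP1, GRHL2, OVOL1, CLDN7 and ELF3 (0 to 0.13 CPM). In PANC-1 they included GRHL2, OVOL1 and CLDN7 (0.087 to 0.17 CPM). CDH1 and OVOL2 in H-1299 (0 CPM) were also among them, as were EPCAM, ESRP1 and OVOL2 in H-929 (0.020, 0.11 and 0.044 CPM). With carfilzomib the risen and fallen of this list were 1 and 0 of 4 in RKO, 2 and 3 of 10 in DLD-1, 0 and 2 of 6 in H-23, 1 and 1 of 3 in H-1299, 0 and 3 of 7 in PANC-1, 3 and 2 of 10 in CAPAN-2, 0 and 0 of 2 in H-929 and 1 and 2 of 6 in RPMI. CDH1 fell in H-23 from 102 ± 5.12 to 26.5 ± 1.64 CPM (-1.92 ± 0.053, adjusted p = 5.34e-11), where KRT18 rose, and ESRP1 rose in RPMI from 48.6 ± 5.96 to 119 ± 8.49 CPM (1.37 ± 0.080, adjusted p = 5.31e-09). Of 10 genes of the mesenchymal state, 5 were higher and 2 lower of 7 tested in DLD-1 against RKO, 2 and 6 of 10 in H-23 against H-1299, 3 and 6 of 9 in CAPAN-2 against PANC-1, and 5 and 4 of 9 in H-929 against RPMI. Here too genes near 0 in one line, such as TGFBI at 0 CPM in RKO and in H-929, had to differ. With carfilzomib the risen and fallen were 0 and 0 of 3 in RKO, 0 and 1 of 7 in DLD-1, 2 and 3 of 9 in H-23, 3 and 5 of 9 in H-1299, 2 and 5 of 8 in PANC-1, 2 and 4 of 7 in CAPAN-2, 4 and 2 of 8 in H-929 and 2 and 3 of 6 in RPMI. For both lists, the shares of all genes called with carfilzomib were 8.9% in RKO, 23% in DLD-1, 33.9% in H-23 and 61.2% in H-1299. They were 38.7% in PANC-1, 52.5% in CAPAN-2, 52.6% in H-929 and 63.4% in RPMI. Whether the lists differ from these shares was not tested. SNAI1, a repressor of CDH1, went from 0.825 ± 0.123 to 17.2 ± 3.31 CPM in RPMI (4.44 ± 0.20, adjusted p = 5.36e-10), and S100A4, a calcium-binding protein, from 299 ± 7.22 to 47.9 ± 3.96 CPM (-2.56 ± 0.068, adjusted p = 5.65e-12).

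Across the 16 group means, and among 13471 genes that reached 10 CPM in some group, the genes most like KRT8 by Pearson's r of log2(CPM + 1) were ITGA2 (r = 0.969), GPRC5A (0.968) and SLC16A5 (0.967). For KRT18 they were IGFBP4 (0.969), ABCC3 (0.964) and KBTBD7 (0.954). For KRT19 they were LIPH (0.985), CLDN4 (0.981) and MLPH (0.980). For VIM they were BNIP3 (0.959), GUCY1A2 (0.925) and LINC00665 (0.919). These values are descriptions: both groups of a line share its baseline, so the points are not independent.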

How the data were processed

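The authors deposited raw gene counts, not normalized, for 48 stranded total RNA libraries; of 33892 rows, 4803 share an identifier with another row. The submitters' processing notes name bcl2fastq 2.19, FastQC, Trimmomatic, HISAT2, DESeq2 and hg38; the counting program, its annotation and its use of strand are not given in the sources used here.

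From the deposited counts, edgeR 4.0.16 (R 4.3.3) fitted the 6 libraries of each line with TMM scaling, filterByExpr and the quasi-likelihood test, with Benjamini-Hochberg adjustment over all genes tested and a threshold of 0.05. All 48 libraries entered 1 fit for the mean effect and the difference between lines, and DMSO libraries alone the baseline pairs. A standard error is the absolute log2 change divided by the square root of F. DESeq2 1.42.0 and limma 3.58.1 gave alternatives. Scripts were tested on simulated data. The principal transcript length (GENCODE v29) and the sums with pseudogenes, KRT83 and KRT86 were chosen after seeing the data.

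The members and lists were chosen with earlier results of these data known. All 9 members are named; of each of 6 related lists, the text names the 2 called genes that changed most in any line, if treatments did not overlap and the higher one averaged 50 counts or more. A bound uses a floor of 3 counts over a group. Precision is limited by 3 replicates per group. A marker check of the pancreatic lines is not reported here.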

Additional observations from a re-analysis of the deposited data

Results flagged for a closer look

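The effect of carfilzomib was called different between lines, by an F test of the interaction of line and treatment in edgeR, for 8 of the 9 genes. F was 111 for KRT8 (adjusted p = 2.13e-23), 80.5 for KRT18 (5.73e-21), 49.2 for KRT15 (6.9e-17) and 41.4 for KRT80 (4.29e-16). It was 38.7 for KRT7 (3.43e-15), 29.4 for VIM (1.22e-13), 8.68 for KRT81 (6.64e-06) and 6.14 for KRT19 (0.000201). KRT81 and KRT19 had 0 counts in every RKO library, so their values do not compare all 8 lines. The same test called 67.7% of all genes, so a difference between lines was common among all genes. The log2 change of KRT8 was -1.50 in H-1299 and 2.14 in H-929, and that of KRT7 was 2.89 in H-929 and -2.24 in RPMI. Both H-929 values belong to genes that passed the filter on low counts there through the carfilzomib libraries.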

How the results depend on the processing

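Of 1204 values of single genes recomputed under alternatives, 1084 kept their direction and their side of the threshold, 82 lost the call, 11 gained one and 27 changed sign. Every sign change concerned a value not called to begin with, except the mean effect of KRT8. Library totals in place of TMM moved the members by a median of -0.11 in H-1299, 0.22 between H-23 and H-1299 and -0.11 between CAPAN-2 and PANC-1 on the log2 scale, and by less than 0.1 in the other comparisons. In RKO, KRT18 was 0.021 with library totals and 0.013 with pseudogene rows added, and KRT15 was -0.0049 in 1 fit of all libraries. KRT81 in CAPAN-2 was -0.012 with KRT83 and KRT86 added. The mean effect of KRT18 was 0.0055 with DESeq2's size factors, 0.022 with library totals, 0.010 with a minimum mean of 50 counts, 0.18 without H-1299 and 0.063 without CAPAN-2. That of KRT80 was 0.13 without H-1299 and 0.11 without RPMI, and that of KRT8 was -0.11 without H-929. Leaving out 1 replicate in turn gave ranges of -0.042 to 0.047 for KRT8, -0.086 to 0.082 for KRT18 and -0.39 to 0.50 for KRT15 in RKO, -0.096 to 0.0061 for KRT80 in DLD-1, -0.12 to 0.24 for KRT7 in PANC-1, -0.061 to 0.17 for KRT7 between H-23 and H-1299 at baseline, and -0.30 to 0.019 for the mean effect of KRT80.

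Against a null change of 1.5-fold, the members called higher numbered 0 in DLD-1, H-23 and PANC-1, 1 in CAPAN-2 and 1 in RPMI, and those called lower 0 in H-23, PANC-1 and H-929 and 1 in CAPAN-2. In 1 fit of all libraries, those called higher numbered 3 in DLD-1, 2 in H-23, 2 in PANC-1 and 8 in H-929, and those lower 0 in PANC-1. The 8 in H-929 include KRT15, KRT17 and KRT19, which had 0 counts there with DMSO and could only be called higher. They also include KRT81, at 3 counts in its DMSO libraries together. These genes entered that fit through other lines. A minimum mean of 50 counts, which tests fewer genes, left 1 higher in H-929, 3 lower in RPMI and 1 higher on average. Those lower in PANC-1 numbered 2 with library totals and in DESeq2. Without 1 replicate in turn, the members called numbered 3 to 5 (higher, DLD-1), 2 to 4 (higher, H-23), 0 to 1 (lower, H-23), 1 to 2 (lower, PANC-1) and 1 to 2 (higher, average). With the lines as units, 0 members were called higher and 0 lower on average, and 0 of all genes were called. Without H-929 the members higher and lower on average numbered 1 and 4, and without RKO or RPMI 2 were lower. The cause was not tested. Apart from the lines as units, the share of all genes called under these settings is not given. These counts therefore do not set the members apart from other genes.

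Replicate numbers did not pair the libraries: same-numbered libraries correlated at -0.11 to 0.068, with 0 of 24 pairs over 0.1, and 10 libraries correlated best with their own number. With the replicate block, 5 members were called lower in CAPAN-2 against 6 (KRT7, adjusted p = 0.0586), and no other call changed. Calls on few reads in H-929, the shallowest line, are limited by depth.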

Other observations

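Beyond the rule for naming genes, and chosen after their values were seen, 2 structural genes moved one way in most lines. LMNB1, the nuclear lamin B1, was called lower in all 8 lines, from -0.31 on the log2 scale in DLD-1 to -1.20 in H-929 (edgeR, largest adjusted p = 0.00291). DST, the plakin dystonin, was called higher in 7 lines, by 0.19 in RKO to 0.62 in H-1299 (largest adjusted p = 0.0239), and was at 0.038 (adjusted p = 0.719) in H-929. In CAPAN-2 the epidermal stress keratin KRT6A had 0 counts in every DMSO library and a mean of 0.678 CPM with carfilzomib, and KRT6C had 0 counts and 0.461 CPM. The KRT6 genes are near-identical, so which copy these reads came from is uncertain.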
